A study of Rattus norvegicus with 21 samples.

Results

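Krüppel-like factors are transcription factors that carry zinc fingers at their carboxy-terminal end and bind GC-rich and CACCC sequences. The genes described are Klf2, Klf3, Klf4, Klf5, Klf6, Klf7, Klf9, Klf10, Klf13 and Klf15, taken by symbol from a gene expression table of rat cells. They are 10 of 17 genes in the table with a Klf symbol, and the table used holds 9998 genes. RNA sequencing was done on 21 libraries of rat (Rattus norvegicus) bone marrow mesenchymal stem cells, all labelled WT. In 6 groups of 3 libraries the cells were treated with SFSN, which the series title expands as self-feedback synaptic networks. Each SFSN group is named for a target cell type, with SFSN-EC for endothelial cells, SFSN-Ot for osteoblasts, SFSN-TC for tendon cells, SFSN-FB for fibroblasts, SFSN-Neu for neuron-like cells and SFSN-Adipo for adipocytes. The 3 Control libraries carry no treatment in the labels. Nothing in the labels tells if replicate libraries were grown from different cultures or animals. The p-values therefore cover only the variation among the libraries at hand, which may be technical. No dose, time or length of treatment was given in the labels.

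The family members share their DNA-binding end and differ in the amino-terminal part, which recruits coactivators or corepressors. Many are induced within minutes to hours by serum, growth factors, shear stress or steroid hormones. In stromal cells of the bone marrow and in preadipocytes, largely from work in mouse, individual members are known to promote or to hold back the formation of fat cells, and some act in bone and cartilage cells.

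Libraries held between 8113600 and 8934239 counts on the 9998 genes. Levels between libraries are given in CPM, which is a gene's count relative to the library total after TMM scaling, a step that sets the libraries' typical gene equal. Levels of different Klf genes are compared only in TPM, which also corrects for transcript length. A pair of libraries stood apart from their replicates. Between replicates, the chi-square of all counts per degree of freedom was 42.58 and 41.43 for SFSN-EC 1 against SFSN-EC 2 and SFSN-EC 3, and 2.16 between SFSN-EC 2 and SFSN-EC 3. SFSN-Neu 2 gave 21.56 and 23.98 against SFSN-Neu 1 and SFSN-Neu 3, which gave 2.83 against each other. The replicate pairs of the other groups gave 2.38 to 14.16, and no pair agreed within sampling noise. In SFSN-EC 1, Klf13 stood at 21.8%, Klf7 at 42.2%, Klf9 at 62.8% and Klf6 at 72.1% of the mean of the other SFSN-EC libraries. In SFSN-Neu 2 the same genes stood at 41.9%, 51.4%, 60.2% and 80.8%, while the other 6 members lay between 91.6% and 122% in both libraries. The part of these libraries in a result was tested by leaving both out, and the calls of members against Control or against the other SFSN groups that changed without them are given with their values.

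Klf6, an early response gene of tissue injury, was the most abundant member per length, with a median of 104 TPM over the 21 libraries and a range of 57.4 to 159 TPM. Klf2, known for its induction by blood flow in endothelial cells, had a median of 36.7 TPM. Klf10, first described as a TGF-beta inducible early gene, had 28.3 TPM. Klf4, a reprogramming factor, followed with 21.4 TPM, the repressor Klf3 with 19.5 TPM and the steroid-induced Klf9 with 19.0 TPM. The other 4 members were low, at medians of 5.58 TPM for Klf7, 4.69 TPM for Klf13, 2.69 TPM for Klf5 and 1.23 TPM for Klf15. Klf13 was at 4 to 26 counts in a library and Klf15 at 17 to 57 counts, so their values carry the widest counting error. Klf5 had 54 to 122 counts, so the rank of Klf13 above Klf5 in TPM rests on the transcript lengths used.

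**Figure D1:**
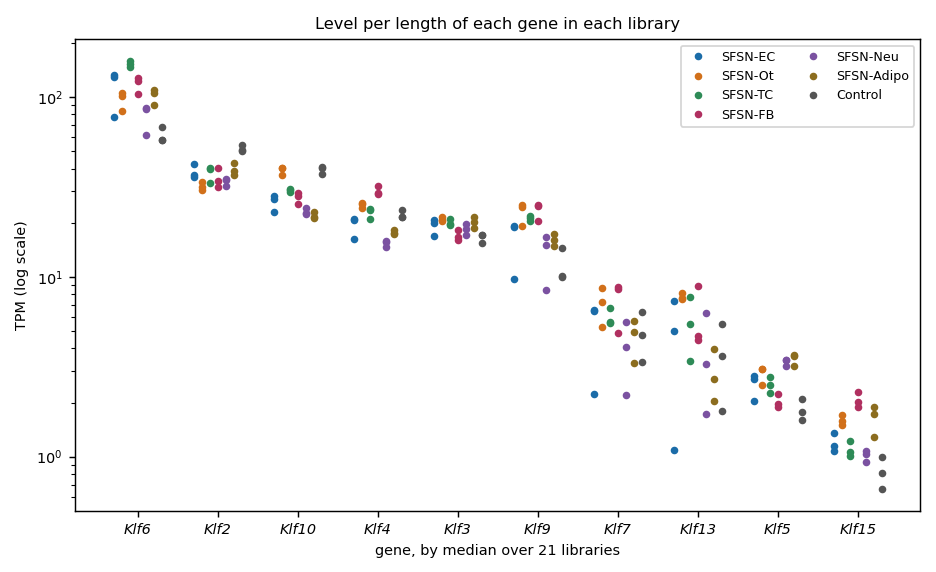
TPM of each of the 10 Klf genes in all 21 libraries on a log axis, with 1 point per library and groups by colour. Klf6 lay at 57.4 to 159 TPM, above every other member in all libraries, and Klf15 lay lowest at a median of 1.23 TPM.

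All 10 members passed the filter on low counts, as did 6659 genes in all. Each SFSN group was set against Control with edgeR's quasi-likelihood test, with p adjusted by the Benjamini-Hochberg method over all genes tested, and a gene was called at an adjusted p under 0.05. The 6 comparisons share the same 3 Control libraries and are not independent of each other. Klf2 and Klf10 were called lower in all 6 SFSN groups, and Klf6 was called higher in 5. Klf4 was called lower in 4 groups and higher in SFSN-FB. Klf5, Klf9 and Klf15 were each called higher in 3 groups, Klf3 was called higher in SFSN-Ot, and Klf7 and Klf13 were called in none. In these bulk libraries, fewer cells that express a gene and less of its RNA per cell cannot be told apart.

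In SFSN-EC, 1 member was called higher, where 17.7% of all genes were, and 3 were called lower, where 15.6% of all genes were. In SFSN-Ot the members called were 5 higher, against 20.2% of all genes, and 2 lower, against 19.3%. SFSN-TC had 2 higher, against 19.3% of all genes, and 3 lower, against 18.8%. SFSN-FB had 4 higher, against 21.5% of all genes, and 2 lower, against 21.2%. SFSN-Neu had 1 higher, against 20.1% of all genes, and 3 lower, against 17.9%. SFSN-Adipo had 3 higher, against 19.7% of all genes, and 3 lower, against 16.8%. With 10 members, counts of 1 to 3 lie near those shares. The median log2 fold change of the 10 members was 0.07 for SFSN-EC, 0.45 for SFSN-Ot, 0.12 for SFSN-TC, 0.40 for SFSN-FB, -0.04 for SFSN-Neu and -0.09 for SFSN-Adipo, while that of all genes tested was 0.00 to 0.02.

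These changes are relative to the typical gene. Scaling by total counts alone raised the median gene by 0.16 to 0.22 on the log2 scale in the SFSN groups against Control, and limma on TPM raised it by 0.10 to 0.19. Under total-count scaling the members called in SFSN-EC were 5 higher and 2 lower, and of all genes called there 81.7% were higher, against 53.2% under TMM scaling. The split of members was 6 higher and 1 lower in SFSN-Ot, 4 and 2 in SFSN-TC, 4 and 2 in SFSN-FB, 3 and 3 in SFSN-Neu, and 5 and 3 in SFSN-Adipo under that scaling. The share of higher among all genes called there was 74.3%, 78.3%, 75.0%, 81.2% and 82.5% in those groups, against 51.2%, 50.7%, 50.4%, 52.9% and 53.9% under TMM scaling. With limma on TPM the members called were 3 higher and 2 lower in SFSN-EC, 5 and 1 in SFSN-Ot, 4 and 2 in SFSN-TC, 4 and 2 in SFSN-FB, 1 and 3 in SFSN-Neu, and 4 and 3 in SFSN-Adipo. Of all genes called with limma on TPM, the share of higher was 73.6% for SFSN-EC, 73.6% for SFSN-Ot, 80.6% for SFSN-TC, 70.8% for SFSN-FB, 70.9% for SFSN-Neu and 81.4% for SFSN-Adipo. The genes called with limma on TPM were 2255, 2688, 3012, 2816, 2485 and 2889 in the same order of groups. Klf2 fell in all 6 groups and Klf6 rose in at least 5 under TMM scaling, total-count scaling and limma on TPM, whereas Klf10 in SFSN-Ot and Klf4 in SFSN-EC and SFSN-TC were called lower only under TMM scaling among these.

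**Figure D2:**
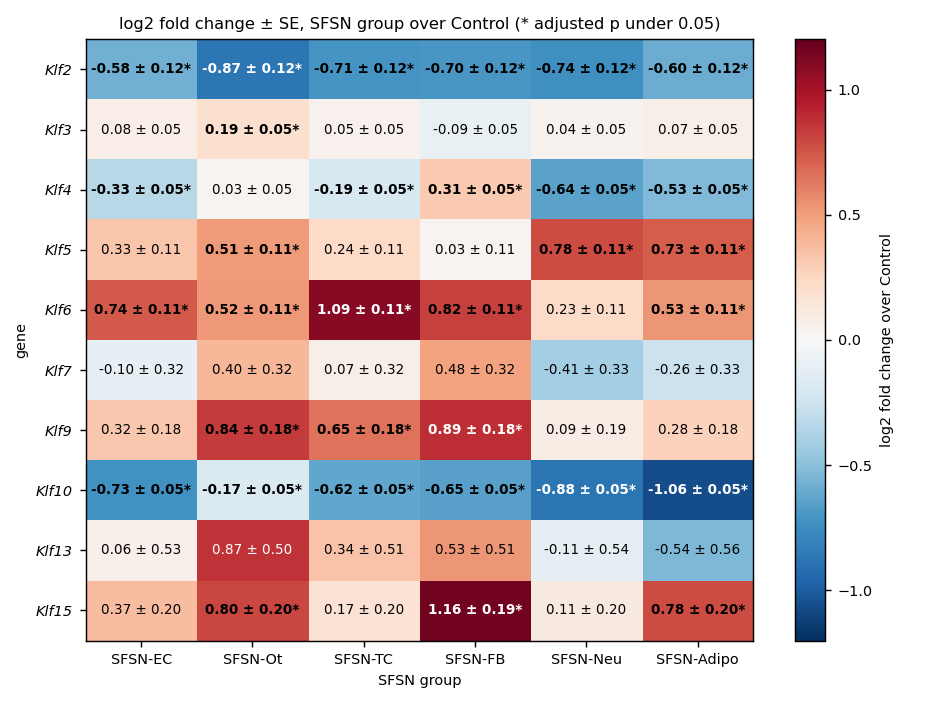
log2 fold change ± SE of each Klf gene (rows) in each SFSN group against Control (columns), with red for higher and blue for lower, and an asterisk and bold type for an adjusted p under 0.05. Klf2 and Klf10 are lower in all 6 columns, and Klf4 is higher in SFSN-FB (0.31) and lower in SFSN-Neu (-0.64).

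Klf2, Klf3 and Klf7 are members known in mouse to hold back the formation of fat cells. Klf2 (gene ID 306330) keeps endothelial cells and lymphocytes quiescent and represses the adipogenic regulator Pparg in mouse preadipocytes. It had 39.5, 37.7 and 32.9 CPM in SFSN-EC, 28.1, 28.3 and 33.4 CPM in SFSN-Ot, and 35.9, 35.0 and 29.6 CPM in SFSN-TC. In the other treated groups it had 41.2, 31.4 and 29.0 CPM in SFSN-FB, 32.1, 34.1 and 32.5 CPM in SFSN-Neu, and 41.0, 33.1 and 34.7 CPM in SFSN-Adipo, against 55.0, 55.2 and 54.5 CPM in Control. Every one of the 18 SFSN libraries lay below every Control library, and the Control libraries were close together.

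The fold against Control lay between 0.546 in SFSN-Ot and 0.669 in SFSN-EC. The log2 fold changes were -0.58 for SFSN-EC, -0.87 for SFSN-Ot, -0.71 for SFSN-TC, -0.70 for SFSN-FB, -0.74 for SFSN-Neu and -0.60 for SFSN-Adipo, each ± 0.12 (SE), with adjusted p between 1.35e-05 and 0.000848. Klf2 was lower in all 6 groups, and no difference among the SFSN groups passed the test (adjusted p = 0.365, edgeR's quasi-likelihood F test). In the order of levels, SFSN-EC and Control differed (adjusted p = 0.000848), and no neighbouring SFSN groups differed by the test.

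Klf3 (gene ID 114845) is a repressor that recruits the corepressor CtBP. Its level was steady. The SFSN libraries lay between 96.8 and 128 CPM with a median of 114 CPM, and the Control libraries between 104 and 115 CPM. It had 126, 120 and 128 CPM in SFSN-Ot, above the 109, 104 and 115 CPM of Control with no overlap (log2 fold change 0.19 ± 0.05, adjusted p = 0.00784, edgeR). It was lowest in SFSN-FB, at 105, 105 and 96.8 CPM, which overlapped Control (log2 fold change -0.09 ± 0.05, adjusted p = 0.158). In the remaining groups the log2 fold change against Control was 0.04 to 0.08. Under total-count scaling Klf3 was also called higher in SFSN-EC at 0.27, in SFSN-TC at 0.24, in SFSN-Neu at 0.25 and in SFSN-Adipo at 0.28. No neighbours in the order of levels differed by the test.

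Klf7 (gene ID 363243), known for its role in the growth of neuronal axons, was called in no group. Its libraries were spread widely, with 19.3 to 33.0 CPM in SFSN-FB and 9.18 to 20.6 CPM in SFSN-Neu, against 14.2 to 25.4 CPM in Control. Every SFSN group overlapped Control. The log2 fold change ran from -0.41 ± 0.33 in SFSN-Neu to 0.48 ± 0.32 in SFSN-FB, with adjusted p of 0.244 or more, so differences of this size were not detectable.

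Klf4, Klf5, Klf6, Klf9 and Klf15 are members that promote the formation of fat cells in mouse cell lines. Klf6 (gene ID 58954) is induced early after injury and acts in stellate cells of the liver. Klf9 (gene ID 117560) is a direct target of the glucocorticoid and thyroid hormone receptors. Klf6 is shown by sequence as the abundant member that was higher in most groups, and Klf9 because it moved with Klf6 between replicate libraries. The sequences are the 250 bases before the annotated start in RefSeq, 5′ to 3′ on the gene's strand, with capitals for matches to the CArG box, AP-1 and CACCC search patterns.
Klf6: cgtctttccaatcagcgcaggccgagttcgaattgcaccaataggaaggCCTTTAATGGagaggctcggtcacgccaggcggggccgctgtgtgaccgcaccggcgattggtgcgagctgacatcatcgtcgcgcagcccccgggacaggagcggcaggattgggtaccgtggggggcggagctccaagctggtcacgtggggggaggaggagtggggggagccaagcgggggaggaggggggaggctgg
Klf9: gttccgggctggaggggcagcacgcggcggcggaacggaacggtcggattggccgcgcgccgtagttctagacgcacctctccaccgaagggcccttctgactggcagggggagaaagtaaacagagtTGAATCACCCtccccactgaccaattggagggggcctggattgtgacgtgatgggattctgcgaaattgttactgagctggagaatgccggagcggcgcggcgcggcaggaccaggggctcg
The Klf6 stretch is chr17:69458479-69458728 on the minus strand and the Klf9 stretch chr1:230126396-230126645 on the plus strand, both in build GRCr8, which is not the build of the counts. Motifs were searched on both strands of the RefSeq window, which runs from 250 bases before the start to 50 after it. The Klf6 window held a CArG box, the site bound by serum response factor, whose first base lay 201 bases before the start. That motif was in 1.64% of 33469 promoter windows. It also held 4 copies of CCAAT, found in 37.5% of windows, a GC box, GGGCGG, 76 bases before the start, a motif in 33.1% of windows, and none of CACCC. The Klf9 window held TGAATCA, 122 bases before the start, a match to the AP-1 search pattern TGANTCA. The pattern takes any base at N, here A, so it is looser than the AP-1 consensus. It was in 7.33% of windows. The TGAATCA match overlapped a CACCC match 117 bases before the start, a motif in 54.9% of windows. The Klf9 window also held 3 copies of CCAAT and no GC box. A match describes these letters and is not evidence of binding. Windows were found for 7 of the 10 members.

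Klf6 had 453, 636 and 621 CPM in SFSN-EC, 504, 515 and 444 CPM in SFSN-Ot, and 729, 743 and 710 CPM in SFSN-TC. It had 558, 623 and 622 CPM in SFSN-FB, 426, 345 and 428 CPM in SFSN-Neu, and 447, 505 and 521 CPM in SFSN-Adipo, against 366, 328 and 329 CPM in Control. SFSN-Neu overlapped Control, and the other SFSN groups lay above every Control library. SFSN-TC also lay above every library of the other SFSN groups.

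The fold of Klf6 over Control was 2.13 in SFSN-TC (log2 fold change 1.09 ± 0.11, adjusted p = 3.45e-07, edgeR). It was 1.76 in SFSN-FB (0.82 ± 0.11, adjusted p = 9.64e-06) and 1.67 in SFSN-EC (0.74 ± 0.11, adjusted p = 3.97e-05). Smaller rises were called in SFSN-Ot at a log2 fold change of 0.52 ± 0.11 (adjusted p = 0.0011) and in SFSN-Adipo at 0.53 ± 0.11 (adjusted p = 0.00101). SFSN-Neu was at 0.23 ± 0.11 (adjusted p = 0.115), and without SFSN-EC 1 and SFSN-Neu 2 at 0.33 ± 0.07 (adjusted p = 0.00175). Ordered by level, SFSN-TC, SFSN-FB, SFSN-EC, SFSN-Adipo, SFSN-Ot, SFSN-Neu and Control ran from 727 to 341 CPM, and no neighbours in that order differed (smallest adjusted p = 0.0708).

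Klf9 had 32.2, 51.0 and 51.6 CPM in SFSN-EC, 68.2, 68.4 and 57.3 CPM in SFSN-Ot, and 54.8, 57.1 and 57.6 CPM in SFSN-TC. It had 61.9, 69.4 and 70.0 CPM in SFSN-FB, 46.3, 26.6 and 42.1 CPM in SFSN-Neu, and 41.8, 43.0 and 46.6 CPM in SFSN-Adipo, against 43.5, 32.5 and 32.3 CPM in Control. SFSN-Ot, SFSN-TC and SFSN-FB lay above all Control libraries, and SFSN-EC, SFSN-Neu and SFSN-Adipo overlapped them.

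Klf9 rose 1.86-fold in SFSN-FB (log2 fold change 0.89 ± 0.18, adjusted p = 0.000646, edgeR), 1.79-fold in SFSN-Ot (0.84 ± 0.18, adjusted p = 0.00126) and 1.57-fold in SFSN-TC (0.65 ± 0.18, adjusted p = 0.00928). It was at 0.32 ± 0.18 in SFSN-EC (adjusted p = 0.208), at 0.28 ± 0.18 in SFSN-Adipo (0.257) and at 0.09 ± 0.19 in SFSN-Neu (0.748). Without SFSN-EC 1 and SFSN-Neu 2 the value was 0.51 ± 0.11 in SFSN-EC (adjusted p = 0.00186) and 0.28 ± 0.10 in SFSN-Adipo (adjusted p = 0.0363). No neighbours in the order of levels, from SFSN-FB at 67.1 ± 4.52 CPM to Control at 36.1 ± 6.39 CPM (SD, n = 3), differed by the test.

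**Figure D3:**
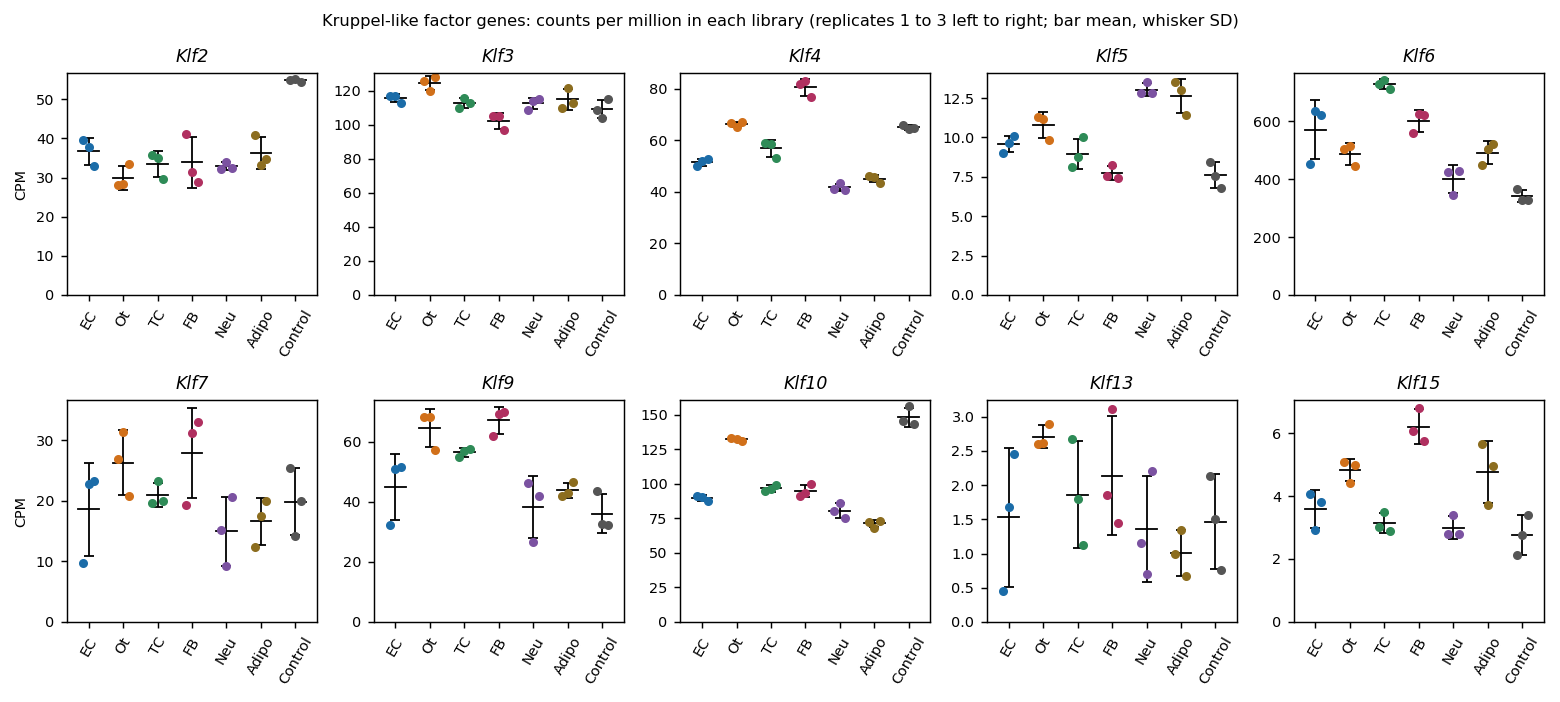
CPM of the Klf genes by group, with 1 point per library, SFSN groups (axis labels without the prefix) left of Control, a bar at the group mean and whiskers of 1 SD. Klf2 and Klf10 lie below all Control libraries in all SFSN libraries, and Klf6 lies above Control in every SFSN group but SFSN-Neu, which overlaps it.

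Klf4 (gene ID 114505), which arrests growth in epithelial cells and is among the factors used to reprogram cells to pluripotency, was the member whose direction differed between groups. It had 82.0, 83.0 and 76.8 CPM in SFSN-FB and 66.7, 65.3 and 67.1 CPM in SFSN-Ot, against 66.1, 64.5 and 64.7 CPM in Control. It had 58.9, 58.8 and 53.0 CPM in SFSN-TC and 50.1, 51.9 and 52.8 CPM in SFSN-EC. The lowest levels were 46.2, 45.8 and 43.6 CPM in SFSN-Adipo and 41.3, 43.3 and 40.7 CPM in SFSN-Neu. SFSN-FB lay above all Control libraries, SFSN-Ot overlapped them, and the 4 other groups lay below them.

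Klf4 rose in SFSN-FB (log2 fold change 0.31 ± 0.05, adjusted p = 0.000127, edgeR) and fell in SFSN-Neu (-0.64 ± 0.05, adjusted p = 3.44e-08) and SFSN-Adipo (-0.53 ± 0.05, adjusted p = 4.11e-07). It was also called lower in SFSN-EC (-0.33 ± 0.05, adjusted p = 8.87e-05) and SFSN-TC (-0.19 ± 0.05, adjusted p = 0.008). The SFSN-EC value was -0.14 under total-count scaling (adjusted p = 0.0514) and -0.19 with limma on TPM (adjusted p = 0.0833). The SFSN-TC value was 0.00 under total-count scaling, 0.04 with limma on TPM and -0.14 without SFSN-TC 3 (adjusted p = 0.0572). SFSN-Ot was at 0.03 ± 0.05 (adjusted p = 0.72), and at 0.18 under total-count scaling (adjusted p = 0.0123). Klf4 differed among the SFSN groups (adjusted p = 1.27e-09), with SFSN-FB at 1.93 times SFSN-Neu. In the order of levels SFSN-FB differed from SFSN-Ot (adjusted p = 0.00347) and SFSN-TC from Control (adjusted p = 0.008), and no other neighbours differed.

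Klf5 (gene ID 84410) drives proliferation in many epithelia and is needed early in the formation of fat cells in mouse. It was low, and had 12.8, 13.5 and 12.8 CPM in SFSN-Neu, 13.5, 13.0 and 11.4 CPM in SFSN-Adipo and 11.3, 11.2 and 9.86 CPM in SFSN-Ot, against 8.44, 7.56 and 6.81 CPM in Control. SFSN-EC had 9.03, 9.62 and 10.1 CPM, SFSN-TC 8.11, 8.77 and 10.0 CPM, and SFSN-FB 7.56, 8.24 and 7.43 CPM. SFSN-TC and SFSN-FB overlapped Control, and the other SFSN groups lay above it. Klf5 rose 1.71-fold in SFSN-Neu (log2 fold change 0.78 ± 0.11, adjusted p = 1.73e-05, edgeR), 1.66-fold in SFSN-Adipo (0.73 ± 0.11, adjusted p = 3.62e-05) and 1.42-fold in SFSN-Ot (0.51 ± 0.11, adjusted p = 0.00137). SFSN-EC stood at the threshold, with 0.33 ± 0.11 (adjusted p = 0.0503), and 17 of 29 alternative settings called it, among them the fit without SFSN-EC 1 and SFSN-Neu 2 (0.37, adjusted p = 0.0389). No neighbours in the order of levels differed.

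Klf15 (gene ID 85497) is a glucocorticoid target that governs amino acid and glucose use in liver and muscle. It had 5.07, 4.41 and 4.99 CPM in SFSN-Ot, 6.05, 6.81 and 5.75 CPM in SFSN-FB and 5.65, 3.71 and 4.95 CPM in SFSN-Adipo, against 2.14, 2.77 and 3.40 CPM in Control. It had 4.06, 2.91 and 3.81 CPM in SFSN-EC, 3.00, 3.49 and 2.90 CPM in SFSN-TC and 2.78, 3.41 and 2.80 CPM in SFSN-Neu, all overlapping Control. The groups SFSN-FB, SFSN-Ot and SFSN-Adipo lay above all Control libraries. Klf15 rose 2.23-fold in SFSN-FB (log2 fold change 1.16 ± 0.19, adjusted p = 9.35e-05, edgeR), 1.74-fold in SFSN-Ot (0.80 ± 0.20, adjusted p = 0.00339) and 1.72-fold in SFSN-Adipo (0.78 ± 0.20, adjusted p = 0.00428). On the log2(TPM + 1) scale, which compresses low genes, SFSN-FB was at 0.75 and SFSN-Ot at 0.51. No neighbours in the order of levels differed.

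Klf10 (gene ID 81813), a TGF-beta target that acts in osteoblasts, was lower in all 6 SFSN groups. It had 90.9, 90.3 and 87.2 CPM in SFSN-EC, 133, 132 and 131 CPM in SFSN-Ot, and 94.4, 96.3 and 98.9 CPM in SFSN-TC. It had 91.3, 93.5 and 99.5 CPM in SFSN-FB, 80.6, 86.0 and 75.0 CPM in SFSN-Neu, and 72.2, 68.3 and 73.3 CPM in SFSN-Adipo, against 145, 156 and 143 CPM in Control. No SFSN library reached the lowest Control library, and SFSN-Ot lay nearest to it.

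The fold of Klf10 against Control was 0.481 in SFSN-Adipo (log2 fold change -1.06 ± 0.05, adjusted p = 3.59e-11, edgeR) and 0.543 in SFSN-Neu (-0.88 ± 0.05, adjusted p = 4.38e-10). It was -0.73 ± 0.05 in SFSN-EC, -0.65 ± 0.05 in SFSN-FB and -0.62 ± 0.05 in SFSN-TC, with adjusted p of 4.33e-08 or less. SFSN-Ot was at -0.17 ± 0.05 (adjusted p = 0.0177). The SFSN-Ot call was lost without Control 2 (-0.13, adjusted p = 0.103), with only the 6 libraries of the pair (-0.16, adjusted p = 0.0506), under total-count scaling (-0.01) and with limma on TPM (-0.01). From low to high the order was SFSN-Adipo, SFSN-Neu, SFSN-EC and SFSN-FB, then SFSN-TC at 96.5 ± 2.24, SFSN-Ot at 132 ± 1.19 and Control at 148 ± 7.19 CPM (SD, n = 3). SFSN-Ot differed from Control (adjusted p = 0.0177) and from SFSN-TC (adjusted p = 6.85e-06), and the lower neighbours did not differ by the test.

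Klf13 (gene ID 499171), an activator of chemokine expression in T lymphocytes, was called in no group. Its means ran from 1.01 ± 0.336 CPM in SFSN-Adipo to 2.71 ± 0.17 CPM in SFSN-Ot, against 1.47 ± 0.693 CPM in Control (SD, n = 3). SFSN-Ot lay above the Control libraries and the other SFSN groups overlapped them. The log2 fold changes against Control lay between -0.54 ± 0.56 and 0.87 ± 0.50, with adjusted p of 0.18 or more. At 4 to 26 counts a library, changes of this size were not detectable.

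The groups were next set against each other with no Control library, each SFSN group against the mean of the other 5. In SFSN-EC, 0 members were called, where 3.17% of all genes were called higher and 2.84% lower. There 1 member, Klf4, had an unadjusted p under 0.05 in edgeR's test, and DESeq2 and limma on TPM also called 0. In SFSN-Ot, 3 members were called higher, against 7.9% of all genes, and 0 lower, against 7.1%. There 6 members had an unadjusted p under 0.05, in either direction, and DESeq2 and limma on TPM also called 0 lower. SFSN-TC had 1 higher, against 7.64% of all genes, and 1 lower, against 7.91%. SFSN-FB had 3 higher, against 12% of all genes, and 2 lower, against 12.2%. SFSN-Neu had 1 higher, against 6.7% of all genes, and 5 lower, against 5.48%. SFSN-Adipo had 1 higher, against 5.71% of all genes, and 2 lower, against 4.78%.

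SFSN-Neu had low levels of Klf4 (log2 difference -0.50 ± 0.04, adjusted p = 4.14e-07, edgeR), Klf6 (-0.51 ± 0.09, adjusted p = 0.000743) and Klf10 (-0.24 ± 0.04, adjusted p = 0.00103). Klf9 was also called lower there, at -0.51 ± 0.15 (adjusted p = 0.0298), and Klf15, at -0.54 ± 0.16 (adjusted p = 0.0294). The Klf9 call was lost without SFSN-Neu 2 (-0.30, adjusted p = 0.249), without SFSN-Neu 3 (-0.58, adjusted p = 0.056) and with limma on TPM (-0.56, adjusted p = 0.0615). The Klf15 call was lost without any one of the SFSN-Neu libraries (adjusted p = 0.0518 to 0.127) and with DESeq2. Klf5 was the member higher in SFSN-Neu, by 0.41 ± 0.08 (adjusted p = 0.00218), and in SFSN-Adipo, by 0.36 ± 0.08 (adjusted p = 0.00689), where the call was lost without SFSN-Adipo 1 (0.30, adjusted p = 0.0708) or SFSN-Adipo 2 (0.33, adjusted p = 0.0598). SFSN-Adipo also had low Klf10 (-0.45 ± 0.04, adjusted p = 2.18e-06), below every library of the other SFSN groups, and low Klf4 (-0.36 ± 0.04, adjusted p = 2.46e-05).

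SFSN-FB had high Klf4 (0.64 ± 0.04, adjusted p = 1.44e-09, edgeR), Klf15 (0.71 ± 0.14, adjusted p = 0.000803) and Klf9 (0.46 ± 0.13, adjusted p = 0.017). Klf5 was lower there (-0.49 ± 0.09, adjusted p = 0.000424), as was Klf3 (-0.18 ± 0.04, adjusted p = 0.00305). Klf4 and Klf15 lay above, and Klf3 below, every library of the other SFSN groups. Without SFSN-FB 3 the calls of Klf3 (-0.14, adjusted p = 0.0528) and Klf9 (0.43, adjusted p = 0.0811) were lost, and that of Klf9 also without SFSN-FB 2 (0.44, adjusted p = 0.074) and with limma on TPM (0.42, adjusted p = 0.124). SFSN-Ot had high Klf10, by 0.62 ± 0.04 (adjusted p = 5.6e-09), with no overlap, Klf4, by 0.30 ± 0.04 (adjusted p = 4.22e-05), and Klf3, by 0.16 ± 0.04 (adjusted p = 0.0109). The Klf3 call was lost without SFSN-Ot 1 (adjusted p = 0.0675) or SFSN-Ot 3 (adjusted p = 0.126), under total-count scaling (0.12, adjusted p = 0.0768) and with limma on TPM (0.14, adjusted p = 0.199). SFSN-TC had high Klf6 (0.53 ± 0.08, adjusted p = 0.000166) and low Klf15 (-0.47 ± 0.15, adjusted p = 0.0463), and the Klf15 call was lost in 21 of 28 alternative settings.

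Without SFSN-EC 1 and SFSN-Neu 2, more members were called against the other SFSN groups. Over all genes, calls rose to 1262 in SFSN-Ot (999 with them), 2107 in SFSN-FB (1609), 915 in SFSN-Adipo (698) and 1246 in SFSN-TC (1036). They were 403 in SFSN-EC (400) and fell to 635 in SFSN-Neu (811). Klf6 was then called higher in SFSN-EC (0.23, adjusted p = 0.0292, edgeR) and SFSN-FB (0.15, adjusted p = 0.032) and lower in SFSN-Ot (-0.21, adjusted p = 0.00731) and SFSN-Adipo (-0.20, adjusted p = 0.0148). Klf9 was called higher in SFSN-Ot (0.32, adjusted p = 0.00708) and lower in SFSN-Adipo (-0.36, adjusted p = 0.00621). The Klf15 call in SFSN-TC was lost (-0.43, adjusted p = 0.0691).

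**Figure D4:**
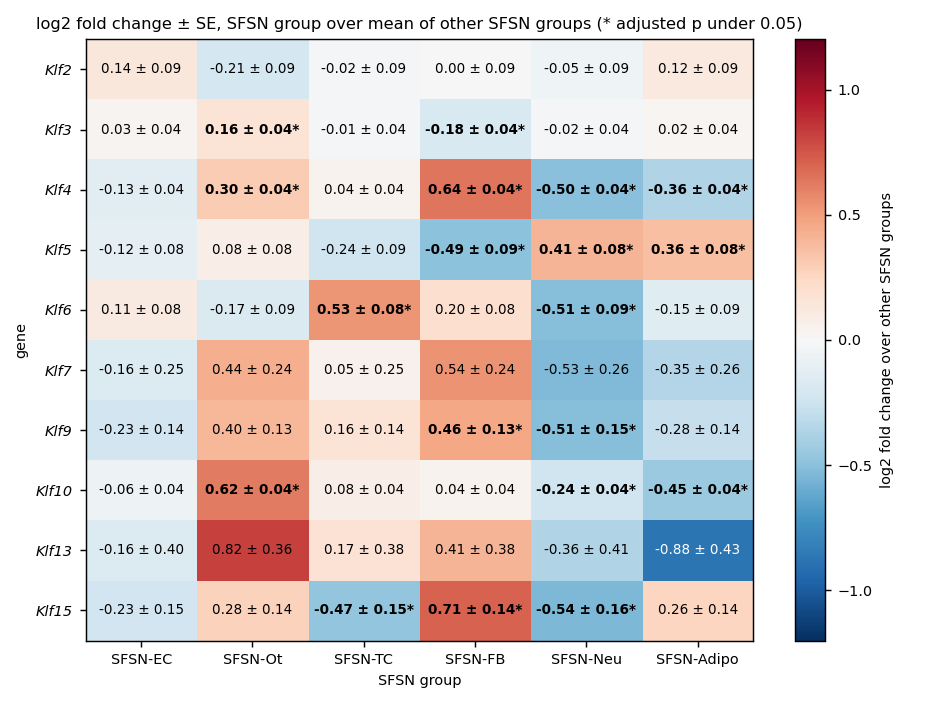
log2 fold change ± SE of each Klf gene (rows) in each SFSN group over the mean of the other 5 SFSN groups (columns), with an asterisk and bold type for an adjusted p under 0.05. SFSN-FB has the highest Klf4 (0.64) and Klf15 (0.71), SFSN-Ot the highest Klf10 (0.62), and SFSN-EC has no called member.

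An F test of any difference among the 6 SFSN groups called 7 of the 10 members, where 34.1% of all genes were called. They were Klf4 (adjusted p = 1.27e-09, edgeR), Klf10 (1.03e-08), Klf6 (0.000114), Klf5 (0.000129), Klf15 (0.00108), Klf9 (0.00591) and Klf3 (0.00915). Klf2 (0.365), Klf13 (0.266) and Klf7 (0.156) were not called. Over the 15 pairs of SFSN groups, 50 of 150 tests on members were called, where 13.6% of all tests on genes were. Klf4 was called in 12 pairs and Klf10 in 10, Klf5 in 7, Klf9 and Klf15 in 6 each, Klf6 in 5 and Klf3 in 4. SFSN-FB and SFSN-Neu differed in 6 members, where 16.7% of all genes were called, among them Klf4 (0.95 ± 0.05, adjusted p = 1.52e-09) and Klf15 (1.05 ± 0.19, adjusted p = 0.000814), both higher in SFSN-FB, and Klf5 (-0.75 ± 0.11, adjusted p = 9.16e-05), higher in SFSN-Neu. SFSN-Neu and SFSN-Adipo differed in 1 member, Klf15 (-0.67 ± 0.19, adjusted p = 0.0497), where 5.69% of all genes were called. Between SFSN-EC and SFSN-TC 0 members were called, where 1.67% of all genes were, and Klf4 (-0.14 ± 0.05) and Klf6 (-0.35 ± 0.11) had an unadjusted p under 0.05 in edgeR's test.

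**Figure D5:**
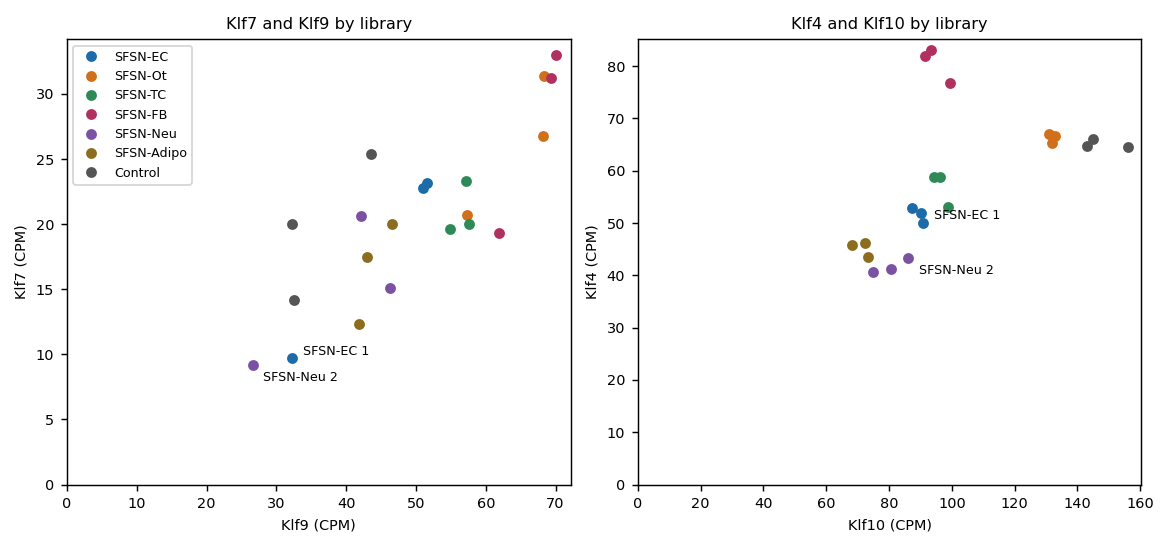
Pairs of Klf genes in CPM with 1 point per library, Klf7 against Klf9 on the left and Klf4 against Klf10 on the right. SFSN-EC 1 and SFSN-Neu 2 have the lowest Klf7 (9.71 and 9.18 CPM) and sit among their own groups in Klf4 and Klf10.

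The genes whose levels over the 21 libraries were most like each member's were found by Pearson correlation of log2 CPM among genes of at least 10 CPM, as a description, since libraries of a group and a scaling are shared. Klf4 was most like Bhlhe40 (r = 0.97), a basic helix-loop-helix repressor, and Errfi1 (0.96), a feedback inhibitor of the EGF receptor. Klf10 was most like Cdkn2aip (0.95) and Kank1 (0.94). Klf2 was most like Bag3 (0.93), a cochaperone of Hsp70, and Efhd2 (0.91), and Klf6 like Cnksr3 (0.93) and Cilp (0.92). Klf9 was most like Arid1b (0.96), a subunit of a chromatin remodelling complex, and Kidins220 (0.96), and Klf7 like Arl5b and Mafg (0.94 each). Klf7 was called in no group. In SFSN-EC 1 and SFSN-Neu 2 it stood at 42.2% and 51.4% of the mean of the other replicates, and Klf9 at 62.8% and 60.2%. The part of these libraries in the correlations was not tested. For the remaining members the values were lower. Klf5 was most like Atp8b2 (0.80) and Fen1 (0.77), Klf15 like Herpud1 and Ehbp1 (0.81 each), Klf13 like Fosl2 (0.78) and Itpr1 (0.76), and Klf3 like Bend3 (0.70) and Cstf2 (0.69).

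Of the 7 other Klf genes in the table, 4 were tested. Against Control, 2 to 4 of these were called higher in each SFSN group (edgeR), where 17.7% to 21.5% of all genes were. All 4 of them, Klf8, Klf11, Klf12 and Klf16, had positive values in all 6 groups, which share the Control libraries. The share of all genes positive in all 6 was not taken. Klf8, at 8 to 44 counts, was called in 2 groups, and Klf12, at 0.09 to 0.75, in 3. The highest of the 4 was Klf11, the closest relative of Klf10, a TGF-beta inducible repressor, called in all 6 groups at log2 fold changes of 0.85 to 1.79. Klf11 was highest in SFSN-FB (1.79) and SFSN-Ot (1.70), where Klf10 was at -0.65 and -0.17 against Control. In SFSN-Adipo, where Klf10 was lowest (-1.06), Klf11 was at 0.98. A relation between the 2 genes was not tested. Klf16 was called in 5 groups, at 0.30 to 0.58, and not in SFSN-FB, at 0.09. The erythroid Klf1 was at 1 to 9 counts, Klf14 at 0 to 5 counts and Klf17 at 0 counts in all libraries.

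Genes that act with the members were read in lists, which describe and do not test them. Against Control, 17.7% to 21.5% of all genes were called higher in a group and 15.6% to 21.2% lower. The counts in a list are given beside these shares. Each log2 range given for a gene of a list or a marker spans all 6 groups, called or not. Among 17 serum and immediate early genes, 7 to 13 were called higher and 2 to 7 lower in a group, with medians of -0.05 to 1.16 on the log2 scale. Fos and Egr1, early response factors, were higher in all 6 groups, by 1.32 to 2.95 and 1.50 to 2.48, while Fosl1 (-1.93 to -0.86) and Arc (-1.90 to -1.10) were lower in all 6. Among 9 genes of the early TGF-beta response, 1 to 4 were higher and 2 to 7 lower, with medians of -0.33 to 0.08. Junb was higher in all 6 groups (0.45 to 1.33) and Bambi in 5 (0.18 to 0.88), and Bhlhe40 (-1.23 to 0.47) and Id3 (-0.78 to -0.12) were called lower in 4 groups each.

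Among 9 adipogenic regulators, 2 to 4 were called higher and 1 to 4 lower in a group, with medians of -0.09 to 0.30. Of all genes, 17.7% to 21.5% were called higher and 15.6% to 21.2% lower. Ebf1, an activator of Pparg and Cebpa, was higher in all 6 groups (0.47 to 0.98) and Cebpa in 4 (0.09 to 0.75). Gata3, which holds back fat cell formation, was lower in all 6 (-1.84 to -1.0), and Creb1 was called lower in 3 (-0.80 to 0.01). Of 11 genes of the glucocorticoid response, which induces Klf9 and Klf15, 3 to 6 were called higher and 2 to 3 lower, with medians of 0.22 to 0.43. Angptl4 (1.17 to 3.38, 6 groups) and Acsl1 (0.07 to 1.41, 5 groups) were higher, and Hsd11b1 (-1.54 to -1.14, 6 groups) and Errfi1 (-1.2 to 0.22, 4 groups) were lower. Fkbp5 was called higher in 3 groups and lower in 2, and was at -0.20 in SFSN-Ot and -0.22 in SFSN-FB. Per1, Tsc22d3 and Zbtb16 were on the list but not among the genes in hand.

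Klf15 is known to activate the breakdown of branched-chain amino acids in muscle. Of 18 genes of that breakdown, 1 to 2 were called higher and 3 to 7 lower, with medians of -0.10 to 0.05. The shares of all genes were 17.7% to 21.5% higher and 15.6% to 21.2% lower. Hibch was higher in all 6 groups (0.30 to 0.69) and Bckdhb in 1 (-0.01 to 0.25), and Bcat1 (-0.65 to -0.44) and Hibadh (-0.58 to -0.33) were lower in all 6. Of 9 genes that Klf2 and Klf4 regulate in endothelial cells, 1 to 3 were higher and 5 lower in each group, with medians of -0.80 to -0.27. The list does not separate genes that these factors raise from genes they lower, so its counts and medians have no single meaning. Nos3 and Thbd were on the list but not among the genes in hand. The endothelin gene Edn1 (-1.96 to -0.74) and the connexin Gja4 (-1.72 to -1.31) were lower in all 6 groups, and Ccl2 in 6 (0.21 to 1.65) and Icam1 in 4 (0.02 to 0.44) were higher. Of 8 cell cycle genes, 3 to 4 were higher and 1 to 3 lower, with medians of -0.05 to 0.19. Ccnb1 (0.20 to 0.47) and Ccne1 (0.25 to 0.56) were higher in all 6 groups, and Ccnd1 (-0.41 to -0.09) and Cdkn2b (-0.49 to 0.24) were called lower in 5 and 4. Under total-count scaling and with limma on TPM, Ccnd1 turned its sign in 3 of 6 groups, and Creb1, Errfi1, Bckdhb and Id3 in 1 or 2.

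Markers of other cell types were read beside these values. The 9 tested markers of bone marrow mesenchymal stem cells summed to 66800 to 90700 CPM in the SFSN libraries and 99700 to 103000 CPM in Control, a sum made up mostly of the collagen gene Col1a1, at 55000 to 76800 CPM. Cd44 was at 988 to 1630 CPM and the leptin receptor gene Lepr at 0.903 to 3.47 CPM. Up to 2 of the 9 were called higher and 4 to 5 lower in a group. For these and the markers below, the shares of all genes were 17.7% to 21.5% higher and 15.6% to 21.2% lower. Eng was called higher in 4 groups (log2 fold change 0.08 to 0.15) and Cd200 in 2 (-0.15 to 0.46), and Cxcl12 (-0.99 to -0.71) and Itgb1 (-0.73 to -0.51) were lower in all 6. Of 14 macrophage and leukocyte markers tested, 3 to 11 were called higher and up to 2 lower in a group. Their sum was 1690 to 1910 CPM in SFSN-Neu, 1530 to 1650 CPM in SFSN-Adipo and 1030 to 1430 CPM in the other SFSN groups, against 943 to 1010 CPM in Control, with Cd163 at 0 to 1 counts. Adgre1 (2.20 to 2.61) and Itgam (0.53 to 1.52) were higher in all 6 groups, and Aif1 (-0.51 to 0.21) and Cd68 (-0.53 to 0.35) were called lower in 2 each. Cd200, Aif1 and Cd68 turned their sign in 1 or 2 groups under total-count scaling and with limma on TPM. All 7 adipocyte markers tested were called higher in all 6 groups, with sums of 94.6 to 375 CPM in the SFSN libraries and 32.1 to 39.6 CPM in Control, among them Adipoq (2.42 to 5.07) and Aqp7 (2.69 to 5.04). Of 5 endothelial markers tested, 2 to 3 were called lower in a group, with sums of 39.6 to 56.0 CPM in the SFSN libraries and 90.6 to 96.4 CPM in Control, and Cdh5, Kdr, Emcn and Ecscr were at 0 to 8 counts in all libraries, SFSN-EC included. Flt1 (-2.78 to -2.50) and Egfl7 (-0.54 to -0.41) were lower in all 6 groups. Epithelial markers summed to 2.93 to 6.57 CPM in the SFSN libraries and 4.16 to 5.29 CPM in Control, with Krt8, at -0.33 to 0.43 against Control, tested and not called, and erythroid markers to 0.332 to 1.63 CPM in the SFSN libraries and 1.13 to 1.39 CPM in Control, with none past the filter. The part of these cell types in the levels of the Klf genes was not tested.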

How the data were processed

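Per the deposited processing description, reads were filtered with SOAPnuke 2.2.1, aligned with HISAT2 2.2.1 (build Rnor_6.0, per the submitters' processing notes) and, for quantification, with Bowtie2 2.4.5, and quantified with RSEM 1.3.1. The deposited table gives RSEM expected counts and TPM per library. The deposited TPM were scaled over all genes the authors quantified, and the genes in hand hold 38.9% to 41.6% of them. The table used holds 9998 genes sorted by symbol. Its last symbol is Map2k1, and genes past it were not analysed here. Among the genes in hand 233 had no count, and 26 symbols that a spreadsheet had turned into dates were restored. All 210 counts of the members were whole. FPKM and normalized values, in 42 per-sample columns, were not used.

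Expected counts were rounded and tested with edgeR 4.0.16 in R 4.3.3 (quasi-likelihood test, filterByExpr, TMM scaling, 1 mean per group, all 21 libraries, 14 residual degrees of freedom), with Benjamini-Hochberg adjustment over 6659 genes and calls at 0.05. SE is the log2 fold change over the square root of F. Alternatives used DESeq2 1.42.0 and limma 3.58.1 on log2(TPM + 1), and the scripts were tested on simulated data. Promoter sequences are from RefSeq, build GRCr8. All members are named in each contrast. From each list, markers included, the text names the 2 genes called higher and the 2 called lower in the most groups, and for each member the 2 genes most like it. The other marker genes named, and Fkbp5, were chosen after their values were seen. Members and lists were chosen with earlier results of these data known. Intervals of counting error are not given, since replicates carry the spread. Counts limit the precision of Klf13 and Klf15.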

Additional observations from a re-analysis of the deposited data

Results flagged for a closer look

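Klf4 was the member whose effect against Control differed in direction between groups, and 4 pairs of SFSN groups were picked out for it because 1 group was called higher and the other lower and the difference itself passed edgeR's quasi-likelihood test. SFSN-FB was higher than Control by 0.31 on the log2 scale, SFSN-EC was at -0.33, SFSN-TC at -0.19, SFSN-Neu at -0.64 and SFSN-Adipo at -0.53. The difference SFSN-EC minus SFSN-FB was -0.64 ± 0.05 (adjusted p = 1.02e-07) and SFSN-TC minus SFSN-FB was -0.50 ± 0.05 (adjusted p = 1.16e-06). SFSN-FB minus SFSN-Neu was 0.95 ± 0.05 (adjusted p = 1.52e-09) and SFSN-FB minus SFSN-Adipo was 0.83 ± 0.05 (adjusted p = 4.07e-09). The direction against Control depends on the scaling in SFSN-TC, where it was 0.00 under total-count scaling. The SFSN-EC call against Control was lost under total-count scaling (-0.14, adjusted p = 0.0514, edgeR) and with limma on TPM (-0.19, adjusted p = 0.0833). The pairs of SFSN-FB with SFSN-EC and SFSN-TC therefore would not be picked out under either scaling. No outlier test per gene was applied to the groups, which hold 3 libraries each.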

How the results depend on the processing

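Over all members and comparisons against Control and against the other SFSN groups, 3322 alternative values kept their side of the threshold, 46 lost a call, 51 gained one and 1 turned sign where a call was involved, namely Klf4 in SFSN-TC against Control, at 0.04 with limma on TPM. Among the 3322 were 54 values with no call whose sign turned. The members called in SFSN-EC against Control were 7 under total-count scaling and 4 as reported. Over all genes 3015 were called there under total-count scaling, against 2215 as reported. Against the other SFSN groups, SFSN-TC had 1 called member under total-count scaling, with no filter on low counts, with DESeq2, and without SFSN-EC 1 and SFSN-Neu 2, against 2 as reported. Over all genes these settings called 1026, 874, 1064 and 1246 in SFSN-TC, against 1036. Leaving out SFSN-EC 1 and SFSN-Neu 2, chosen after seeing the data, gave 1 called member in SFSN-EC (0 as reported), 5 in SFSN-Ot (3) and 5 in SFSN-Adipo (3). Over all genes that fit called 403 in SFSN-EC (400 as reported), 1262 in SFSN-Ot (999) and 915 in SFSN-Adipo (698). Leaving out each replicate in turn gave 4 to 6 called members in SFSN-EC, 6 to 7 in SFSN-Ot, 4 to 5 in SFSN-TC, 6 in SFSN-FB, 4 to 5 in SFSN-Neu and 6 in SFSN-Adipo against Control. Against the other SFSN groups it gave 0 in SFSN-EC, 2 to 5 in SFSN-Ot (5 without SFSN-EC 1), 1 to 2 in SFSN-TC, 3 to 6 in SFSN-FB (3 without SFSN-FB 3), 4 to 6 in SFSN-Neu and 2 to 3 in SFSN-Adipo. The pairs gave 41 to 58 calls and the F test 6 to 7. Calls over all genes were not counted in these fits for the pairs and the F test. Against Control, fits without 1 library called 1850 to 2426 genes in SFSN-EC (2215 as reported) and 2274 to 2919 in SFSN-Ot (2632). They called 2093 to 2878 in SFSN-TC (2534) and 2525 to 3127 in SFSN-FB (2843). In SFSN-Neu they called 2161 to 2816 (2534) and in SFSN-Adipo 2014 to 2725 (2430). Over all genes, 1381 were called in SFSN-EC against Control with only the 6 libraries of the pair, against 2215, and against the other SFSN groups the lowest counts with 1 library left out were 250 in SFSN-EC (400), 657 in SFSN-Ot (999), 599 in SFSN-TC (1036), 428 in SFSN-Neu (811) and 391 in SFSN-Adipo (698), with 659 in SFSN-Ot with limma on TPM. Causes were not tested.

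Pairing of libraries by replicate number across groups was not settled by their deviations from the group mean. Deviations of same-numbered libraries correlated at -0.39 to 0.46 with a median of 0.01, and 17 of 63 pairs lay above 0.1. Those of different numbers also had a median of 0.01, and their share above 0.1 was not taken. Of 21 libraries, 10 correlated best with their own number out of 3. With replicate number as a block, SFSN-TC had 1 called member against the other SFSN groups (Klf15 lost, adjusted p = 0.0663), against 2 without it. Over all genes the block gave 960 calls there, against 1036.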
